A study of Mus musculus with 12 samples.

Results

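A set of genes that restrain signalling by receptor tyrosine kinases and MAP kinases was examined in germ cells and somatic cells of the fetal mouse ovary after exposure to dexamethasone (dex), a drug that activates the glucocorticoid receptor. They were the MAP kinase phosphatase genes Dusp1, Dusp4, Dusp5, Dusp6 and Dusp10, the Sprouty genes Spry1, Spry2 and Spry4, the Sprouty-related gene Spred1, and Errfi1. The 10 genes were taken by symbol from a count table of 54532 genes, and each symbol matched 1 row. All embryos were female and carried the Tg(Pou5f1-EGFP)2Mnn transgene, which expresses GFP in germ cells under Pou5f1 (OCT4) regulatory sequence. Their dams were injected intraperitoneally each day from E12.5 to E15.5, 4 times in all, with either saline or 10 µg of dex for every g of body weight, and the ovaries were collected at E15.5, on the day of the last injection. After removal of the mesonephroi, the ovaries were digested with trypsin and live cells were sorted by flow cytometry. The 4 groups were GFP-positive germ cells after dex, GFP-positive germ cells after saline, GFP-negative somatic cells after dex and GFP-negative somatic cells after saline, with 3 libraries each. Each library pooled ovaries from several litters dosed on their own, so its spread is that between pools and not between embryos. The somatic fraction held every GFP-negative cell type of the ovary, and in such bulk libraries fewer cells of a type and less RNA per cell cannot be told apart.

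Growth factors bind receptor tyrosine kinases at the cell surface, and the signal passes through RAS, RAF and MEK to the MAP kinase ERK, while stress and cytokines act through the related kinases p38 and JNK. MAP kinase phosphatases remove the activating phosphates from these kinases, Sprouty and Spred proteins act further up, on the path from the receptor to RAF, and Errfi1 (also called MIG6) binds the kinase domain of the epidermal growth factor receptor and inhibits it. Many of these genes are themselves transcribed when ERK is active, so that they form negative feedback loops, and Dusp1 and Errfi1 are known to be induced by glucocorticoids in several tissues. In the ovary, germ cells depend on the receptor tyrosine kinase KIT, and somatic cells respond to fibroblast, epidermal and platelet-derived growth factors.

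Libraries held 14658503 to 18245507 counts, and 3 counts, taken as the floor of detection, equalled 0.169 to 0.196 CPM, the counts-per-million measure of expression after TMM scaling. The sort matched the labels, since the summed level of 10 germ cell markers was 5320 to 5881 CPM in saline germ cells and 11.2 to 17.4 CPM in saline somatic cells, where 10 pregranulosa markers summed to 1207 to 1312 CPM against 42.5 to 78 CPM in germ cells. Transcripts of 36 markers of pregranulosa, stromal, endothelial and perivascular cells were found in the germ cells at a median of 2.259% of their somatic level. After dex, 7 of 10 macrophage markers were lower in somatic cells, where their sum was 71.6 to 165 CPM against 235 to 307 CPM after saline, and none of the 10 was at 0. Of 8 endothelial markers 3 were lower and 1 was higher, with sums of 296 to 328 CPM against 329 to 394 CPM. Fkbp5, which encodes a co-chaperone of the receptor and is a standard reference for its activity, rose in somatic cells from 129 to 313 CPM (edgeR quasi-likelihood test, Benjamini-Hochberg adjusted p = 2.61e-07) and stood at 81.9 and 102 CPM in germ cells, where the groups did not overlap but the log2 fold change of 0.33 did not pass the edgeR test (adjusted p = 0.162). It passed with DESeq2 (adjusted p = 0.0464) and with no low-count filter (0.00716). The clock gene Per1, another known target, rose in both, from 82.8 to 265 CPM in somatic cells (adjusted p = 2.24e-07) and from a range of 13.3 to 15.7 CPM to a range of 40.6 to 62.4 CPM in germ cells (adjusted p = 0.000906). Of 6 reference genes of the receptor, edgeR called 5 higher in somatic cells (Fkbp5, Per1, Zbtb16, Klf9 and Tsc22d3, the last named after its values were seen) and 2 higher in germ cells, Per1 and Zbtb16. DESeq2 also called 2 in germ cells, Per1 and Fkbp5, and gave no adjusted p for Zbtb16. The edgeR call of Zbtb16 was lost without germ dex replicate 2 or 3 or germ saline replicate 3 (adjusted p 0.112 to 0.145). Zbtb16 averaged 3.59 CPM in dex germ cells, from 29 to 75 counts per library, and 69.5 CPM in dex somatic cells. The part of carried-over somatic RNA in its germ cell value was not tested.

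Promoter sequences were examined for the members and are described only. The members were chosen as feedback genes, many of them induced by signalling. A binding site for a signal-regulated factor near the start is therefore not independent of that choice. RefSeq gave windows of 300 bases, from 250 before to 50 after an annotated start (assembly GRCm38.p6), for 8 of the 10 genes, 9 windows in all because Errfi1 had 2. Neither Dusp4 nor Spry4 had a window. Both strands were searched for the full cAMP response element TGACGTCA, the AP-1 site TGAGTCA and the hexamer AGAACA, which forms each arm of the palindromic glucocorticoid response element. The cAMP response element was present in 2 of the 9 windows and in 1.79% of all 32851 windows. It lay 51 bases before an Errfi1 start, in chr4:150854820-150855119 on the plus strand, and 143 bases before the Dusp1 start, in chr17:26508423-26508722 on the minus strand. Both windows are printed 5′ to 3′ on the strand of the gene, with the 8 bases of the element in capitals, because Errfi1 carried the dex response described below and Dusp1 was the most abundant member in somatic cells.
Errfi1: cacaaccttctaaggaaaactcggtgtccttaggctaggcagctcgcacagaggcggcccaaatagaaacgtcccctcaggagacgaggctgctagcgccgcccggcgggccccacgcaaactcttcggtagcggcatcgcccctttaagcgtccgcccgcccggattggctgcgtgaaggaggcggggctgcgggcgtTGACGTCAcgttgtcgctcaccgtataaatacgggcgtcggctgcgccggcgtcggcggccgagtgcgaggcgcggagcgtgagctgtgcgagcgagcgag
Dusp1: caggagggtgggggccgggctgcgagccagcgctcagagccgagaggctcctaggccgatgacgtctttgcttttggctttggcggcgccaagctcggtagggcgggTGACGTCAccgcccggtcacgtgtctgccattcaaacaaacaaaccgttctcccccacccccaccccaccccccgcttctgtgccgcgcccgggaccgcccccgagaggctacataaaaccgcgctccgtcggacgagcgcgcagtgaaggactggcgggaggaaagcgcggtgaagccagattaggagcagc
The hexamer AGAACA and the AP-1 site were in none of the 9 windows, against 18.97% and 5.202% of all windows. The other Errfi1 window held no match to any of these motifs. A match or its absence describes these letters in these windows only, and a link between the element and the dex response was not tested.

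Without dex, 8 of the 10 genes were lower in germ cells than in somatic cells and 1, Errfi1, was higher. Of all 17941 genes tested in this comparison, 86.1% passed the test in one direction or the other and 42.9% were lower in germ cells, beside 9 and 8 of the 10 members, so the count of 9 is near the background. The ranges of the 2 cell types did not overlap for any of the 10 members, against 87.2% of all genes. The widest gap was in Dusp6, the cytoplasmic phosphatase specific for ERK, which measured 49.9, 51.4 and 61.6 CPM in the 3 somatic saline libraries and 0.774, 1.89 and 1.04 CPM in the germ cell ones. The log2 fold change, germ cells against somatic cells, was -5.44 ± 0.20 (SE, adjusted p = 1.96e-12).

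Among the other phosphatases, Dusp1, a nuclear enzyme of the immediate-early class that acts on p38, JNK and ERK, measured 162, 161 and 183 CPM in somatic cells and 11, 9.74 and 12.8 CPM in germ cells, a log2 fold change of -3.91 ± 0.10 (SE, adjusted p = 4.94e-14). All 13 transcripts of a list of dissociation and stress genes, mostly immediate-early genes, were likewise lower in germ cells, with a median log2 fold change of -4.97, and the part of the digestion in the Dusp1 level was not tested. The nuclear ERK phosphatase gene Dusp5 was 82 ± 10.2 CPM in somatic cells and 36.6 ± 5.51 CPM in germ cells (SD, n = 3). Dusp4, whose product is a nuclear phosphatase, and Dusp10, whose product acts on p38 and JNK, were low in both, at 6.32 ± 1.24 and 4.36 ± 0.277 CPM in somatic cells against 1.95 ± 0.395 and 1.79 ± 0.671 CPM in germ cells (SD, n = 3). Their counts in saline germ cells were 26 to 40 and 17 to 42 per library, all above the floor of 3.

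The 3 Sprouty genes, whose products act on the path from receptor to RAF, were all lower in germ cells. Spry4 measured 26.4, 30.7 and 33.6 CPM in somatic cells and 0.452, 2.07 and 0.928 CPM in germ cells, with 7, 35 and 16 counts in the latter. The log2 fold change of Spry4 was -4.69 ± 0.28 (SE, adjusted p = 5.23e-10). Spry1 was 88.4 ± 5.67 against 8.66 ± 1.15 CPM and Spry2 39.8 ± 1.36 against 10.5 ± 1.51 CPM (SD, n = 3), so the gap narrowed from Spry4 through Spry1 to Spry2. Spred1, whose product recruits neurofibromin to RAS, was abundant in both cell types. It measured 175, 162 and 162 CPM in somatic cells and 179, 180 and 183 CPM in germ cells, and its log2 fold change of 0.11 (95% CI -0.03 to 0.26) did not pass the test (adjusted p = 0.132). Errfi1 had the opposite order, with 60, 73.7 and 63.9 CPM in somatic cells and 227, 253 and 228 CPM in germ cells, 3.58-fold higher in germ cells (log2 fold change 1.84 ± 0.09 SE, adjusted p = 2.99e-11).

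**Figure D1:**
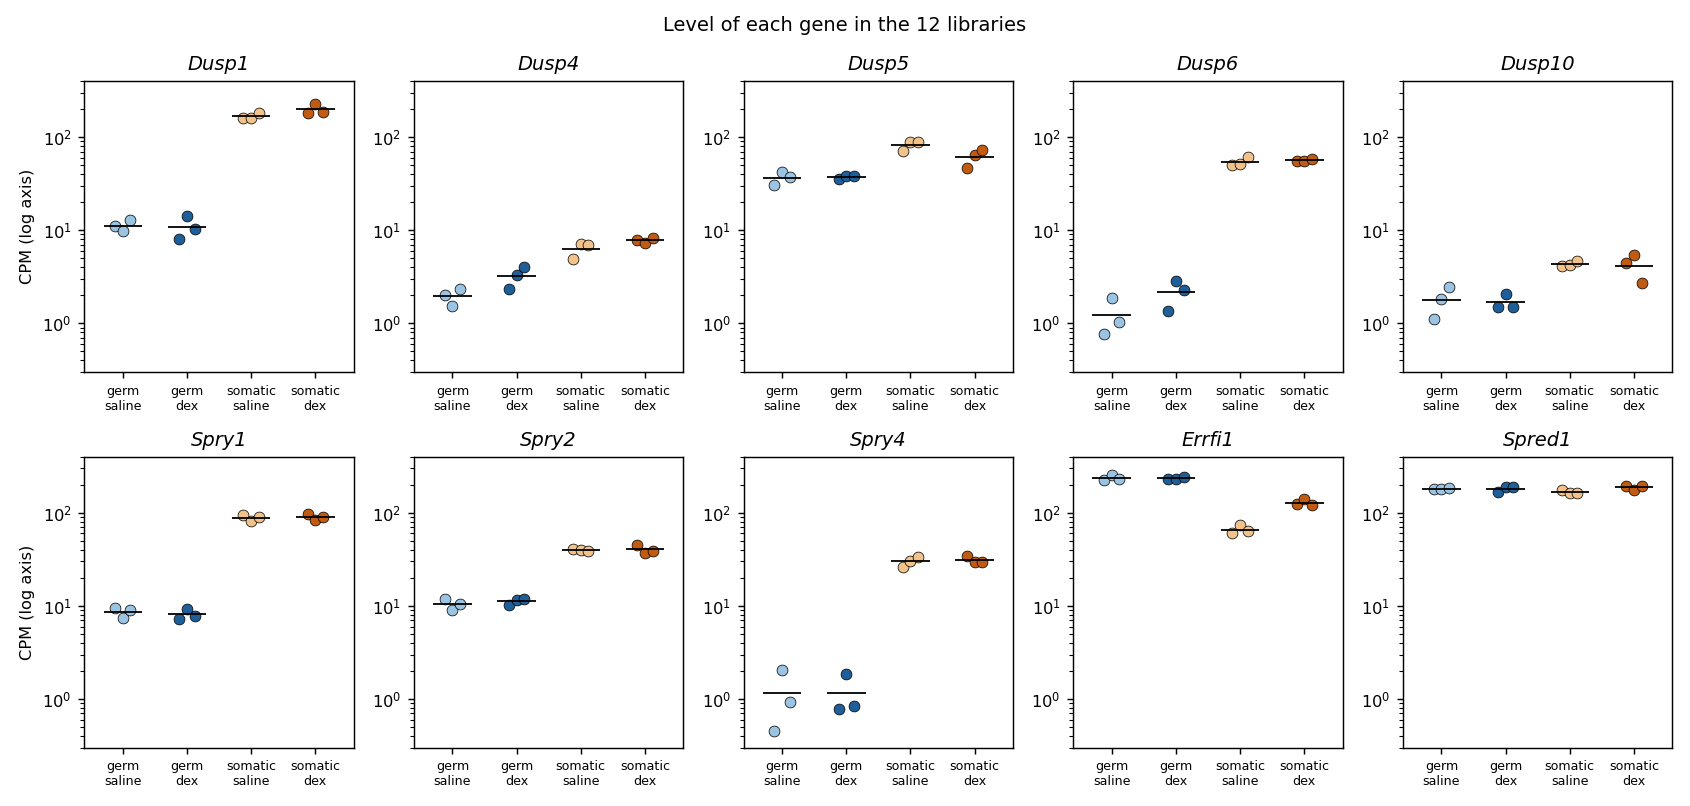
Level of each of the 10 genes in CPM (log axis) in the 12 libraries, with 1 point per library and a line at the group mean. Dusp1, Dusp6, Spry1 and Spry4 sit well apart between germ cells and somatic cells, Spred1 lies between 162 and 196 CPM in every library, and Errfi1 is the gene whose somatic dex libraries (122 to 140 CPM) all lie above its somatic saline libraries (60 to 73.7 CPM) by a wide gap.

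The order of the members within a cell type was taken from FPKM, which is scaled by gene length. In saline germ cells Errfi1 led at 66 ± 3.48 FPKM, followed by Spred1 at 26.7 ± 0.44 and Dusp5 at 14.8 ± 2.1 FPKM (SD, n = 3), and the ranges of these 3 did not overlap. Spry2 (5.02 FPKM) and Dusp1 (4.16 FPKM) came next and overlapped, Spry1 stood at 2.99 FPKM, and Dusp4, Dusp10, Dusp6 and Spry4 were all below 1 FPKM, each overlapping its neighbour. In saline somatic cells Dusp1 led at 60.8 ± 4.49 FPKM, Dusp5 and Spry1 overlapped at 32.2 and 29.5 FPKM, and Errfi1 was sixth at 17.9 ± 1.84 FPKM, overlapping both Spry2 above it and Dusp6 below it. After dex Errfi1 was second in somatic cells at 35 ± 2.77 FPKM, behind Dusp1 at 71.6 ± 8.48 FPKM and with a range that overlapped neither neighbour. In germ cells the first 7 places were the same after dex as after saline.

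Because somatic markers were detected in the sorted germ cells, the germ cell level of each member was set as a percentage of its somatic level beside the same ratio for the 36 markers. The markers ranged from 0.5112% to 223.7% in saline, with quartiles at 0.881% and 10.84%. The highest was the endothelial marker Tek, which was itself higher in saline germ cells (27.7 CPM) than in saline somatic cells (12.39 CPM). Dusp6 at 2.276%, Spry4 at 3.799%, Dusp1 at 6.636% and Spry1 at 9.803% lay between those quartiles, with 18, 21, 24 and 26 of the 36 markers at or below them. By class, the marker medians were 0.7011% for stromal, 1.983% for endothelial, 2.338% for perivascular and 7.032% for pregranulosa markers. Spry2 (26.27%), Dusp4 (30.88%), Dusp10 (41.05%) and Dusp5 (44.66%) lay above the upper quartile, with 32, 32, 33 and 34 of the 36 markers at or below them. Errfi1, at 358.6%, was above all 36. The part of carried-over somatic RNA in the germ cell levels of Dusp6, Spry4, Dusp1 and Spry1 was not tested.

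**Figure D2:**
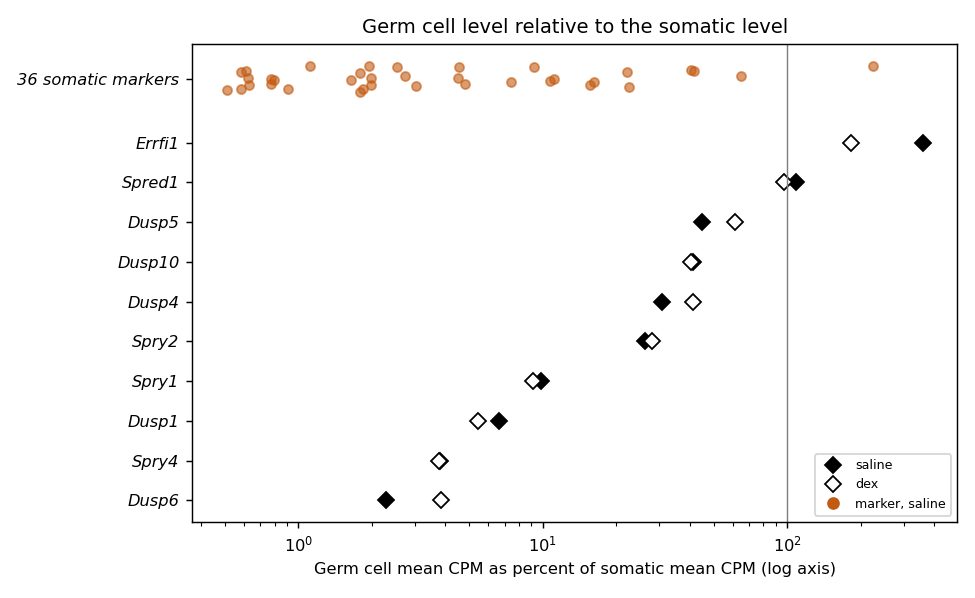
Germ cell mean CPM as a percentage of somatic mean CPM (log axis) for the 10 genes after saline (filled) and dex (open), with the 36 somatic marker genes after saline in the top row. Dusp6, Spry4, Dusp1 and Spry1 fall between the quartiles of the markers (0.881% and 10.84%), and Errfi1 moves from 358.6% to 182.4% between saline and dex.

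In somatic cells, 1 of the 10 genes, Errfi1, rose after dex. It measured 60, 73.7 and 63.9 CPM after saline and 123, 140 and 122 CPM after dex, so the lowest dex library stood far above the highest saline library. The rise was 1.96-fold, a log2 fold change of 0.97 ± 0.09 (SE, 95% CI 0.79 to 1.16, edgeR quasi-likelihood test, Benjamini-Hochberg adjusted p = 9.29e-06). It passed the test under all 11 alternative settings, with log2 fold changes of 0.89 to 1.06. Of all 16556 genes tested in somatic cells 8.18% passed, so 1 of 10 members is near the background share, and the median of the members was 0.056 on the log2 scale against 0.00014 for all genes. Macrophage markers fell in the same libraries, as given above, and their part in the Errfi1 level was not tested. Germ cell markers, summed, reached 20.6 to 34 CPM in the dex somatic libraries and 11.2 to 17.4 CPM in the saline ones. The sum was 4827 to 5159 CPM in dex germ cells, whose Errfi1 level was 234 CPM. Of 7 germ cell markers tested in somatic cells, 1 was called higher after dex and 0 lower, with a median log2 fold change of 0.653. The part of germ cell RNA in the somatic Errfi1 level was not tested. The gene 1700045H11Rik overlaps Errfi1, which lies at chr4:150853919-150868892 (GRCm38), and because no source used here says whether the counting used strand, reads of the overlap cannot be told apart.

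The remaining 9 members did not pass the test in somatic cells. Dusp5 was the only one lower by more than 0.1 on the log2 scale, at 46.1, 64 and 72 CPM after dex against 70.2, 87.8 and 88 CPM after saline. The highest dex library overlapped the lowest saline library, and the log2 fold change of -0.43 (95% CI -0.72 to -0.13) had an adjusted p of 0.077 in edgeR. The Dusp5 difference passed with DESeq2 (adjusted p = 0.0195), with no low-count filter (2.91e-06), with a block for the replicate number (0.00188) and without somatic dex replicate 3 (log2 fold change -0.57, adjusted p = 0.00465), and it was smallest without somatic dex replicate 1 (-0.26, adjusted p = 0.172). With no low-count filter the log2 fold change was -0.44, so the lower adjusted p there came without a clearly larger effect. Dusp5 overlaps the gene AC137853.2.

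Dusp1 measured 182, 225 and 187 CPM after dex and 162, 161 and 183 CPM after saline. Dex replicate 1 lay just under saline replicate 3, so the groups overlapped, and the log2 fold change of 0.24 (95% CI 0.05 to 0.42) had an adjusted p of 0.122 in edgeR. It passed only with no low-count filter (adjusted p = 0.0242) and without somatic dex replicate 3 (0.28, adjusted p = 0.0484), and was 0.13 without somatic dex replicate 2. Dusp4 was the other member whose groups did not overlap, at 7.94, 7.31 and 8.28 CPM after dex and 4.89, 7.1 and 6.97 CPM after saline, with a log2 fold change of 0.32 (95% CI -0.09 to 0.73) and an adjusted p of 0.387. Such separation was seen in 25.6% of all genes and in 2 of the 10 members. Spred1 was 188 ± 11.9 CPM after dex and 167 ± 7.47 CPM after saline (SD, n = 3, adjusted p = 0.128 in edgeR).

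The other 5 members had somatic log2 fold changes between -0.05 and 0.06. For Dusp6 the 3 dex libraries at 54.8, 56 and 58.8 CPM lay inside the saline range of 49.9 to 61.6 CPM. The 95% confidence interval of its log2 fold change was -0.12 to 0.25. For Spry1 the interval was -0.13 to 0.18, for Spry2 -0.16 to 0.23 and for Spry4 -0.19 to 0.29, so these 4 genes differed by less than the spread between libraries and a change as large as that of Errfi1 lay outside each interval. Dusp10, at 4.42, 5.4 and 2.7 CPM after dex and 4.14, 4.26 and 4.67 CPM after saline, was less precise, with an interval of -0.63 to 0.52.

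**Figure D3:**
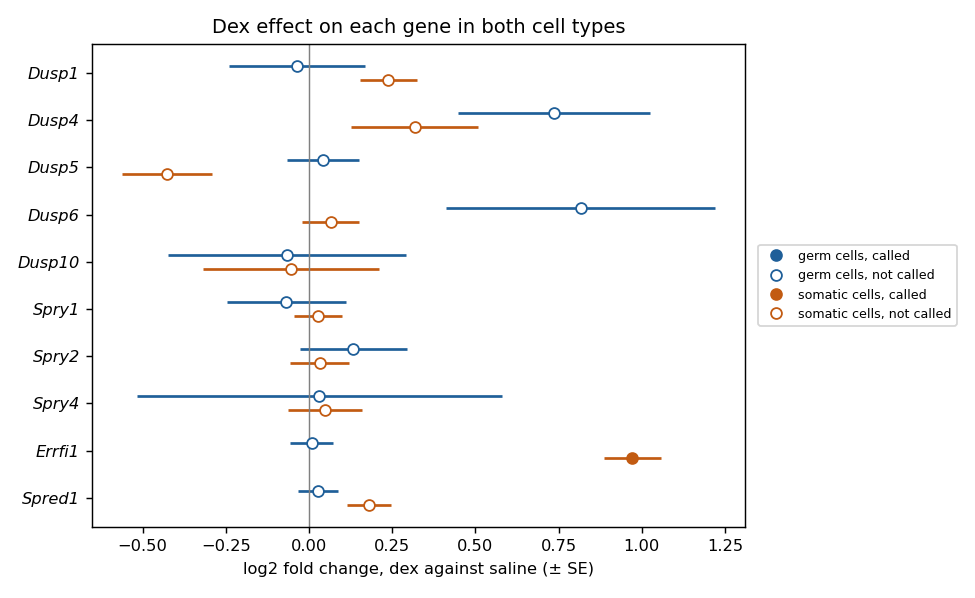
Log2 fold change of each gene, dex against saline, in germ cells (blue) and somatic cells (orange), with bars of 1 SE from the edgeR fit. Filled points passed the test at an adjusted p of at most 0.05, and Errfi1 in somatic cells (0.97) is the filled point.

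In germ cells, 0 of the 10 genes passed the edgeR test after dex, and 1 of them, Dusp4, had an unadjusted p under 0.05. Of all 16857 genes tested there, 1963 had an unadjusted p under 0.05. DESeq2 also called 0 of the 6 members to which it gave an adjusted p, and gave none for Dusp4, Dusp6, Dusp10 and Spry4. Of all 16857 genes tested in germ cells 0.208% passed, so a count of 0 in 10 is near the background share, and the median of the members, 0.029 on the log2 scale, stood beside 0.014 for all genes. Errfi1, the gene that rose in somatic cells, measured 232, 229 and 242 CPM after dex and 227, 253 and 228 CPM after saline. Its log2 fold change was 0.01 ± 0.06 (SE, 95% CI -0.13 to 0.15, adjusted p = 0.974), so a rise of the somatic size lay outside the interval.

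The phosphatase gene Dusp4 was the only member whose germ cell groups did not overlap, at 2.35, 3.3 and 4 CPM after dex and 2, 1.53 and 2.32 CPM after saline. The highest saline and lowest dex libraries were nearly level, and the log2 fold change of 0.74 ± 0.29 (SE) had an adjusted p of 0.359. Separation of this kind was seen in 16.9% of all genes. Dusp6 measured 1.37, 2.85 and 2.27 CPM after dex and 0.774, 1.89 and 1.04 CPM after saline, from 21 to 44 and 12 to 32 counts, with a log2 fold change of 0.82 (95% CI -0.07 to 1.70, adjusted p = 0.474). The median germ cell share of the somatic markers was 2.259% after saline and 3.134% after dex, and its part in the Dusp6 and Dusp4 values was not tested. The other 7 members had log2 fold changes from -0.07 to 0.13. The interval was narrow for Spred1 (-0.10 to 0.16) and Dusp5 (-0.19 to 0.28), wider for Spry2 (-0.22 to 0.48), Spry1 (-0.46 to 0.32) and Dusp1 (-0.48 to 0.41), and widest for Dusp10 (-0.85 to 0.71) and Spry4 (-1.16 to 1.22), whose counts were lowest.

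The dex effect differed between the cell types for 1 of the 10 genes, Errfi1, when the difference itself was tested over all 12 libraries. The log2 fold change in germ cells minus that in somatic cells was -0.97 ± 0.11 (SE, 95% CI -1.21 to -0.74, adjusted p = 0.000146), and it passed under all 16 alternatives, between -1.06 and -0.90. Of all 19390 genes tested 1.62% passed this test. Dex thus left the 2 cell types closer in Errfi1, with the somatic level at 27.88% of the germ cell level after saline and at 54.82% after dex. For Dusp6 the difference was 0.74 (95% CI 0.04 to 1.43) and for Dusp5 0.46 (95% CI 0.04 to 0.87), with unadjusted p under 0.05 and adjusted p of 0.295 and 0.276. Of all 19390 genes tested, 2991 had an unadjusted p under 0.05. The other 7 members had adjusted p of 0.442 or more.

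**Figure D4:**
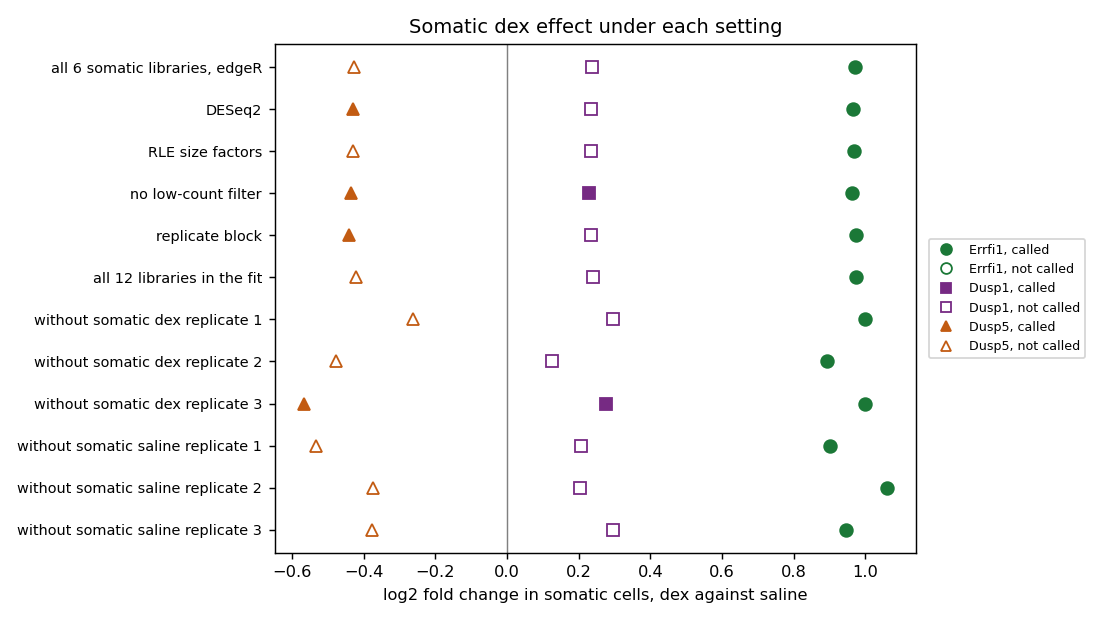
Log2 fold change in somatic cells, dex against saline, of Errfi1, Dusp1 and Dusp5 under each setting, filled where the adjusted p was at most 0.05. Errfi1 stays between 0.89 and 1.06 and is filled throughout, Dusp5 stays negative between -0.57 and -0.26 and is filled in 4 of 12 settings, and Dusp1 stays positive between 0.13 and 0.30 and is filled in 2.

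The genes whose pattern over the 12 libraries was most like that of Errfi1 were Pdp1, which encodes a phosphatase that activates the pyruvate dehydrogenase complex, and Slc4a11, which encodes a membrane transporter. Their Pearson correlations of log2(CPM + 0.5) with Errfi1 were 0.9915 and 0.9912, among 16132 genes ranked. Pdp1 averaged 28.1 CPM in saline and 53.7 CPM in dex somatic cells, and 104 and 97 CPM in germ cells. Slc4a11 averaged 2.43 and 7.03 CPM in somatic cells and 15.9 and 16.6 CPM in germ cells. The libraries fall into 4 groups, so the correlations are a description of these 12 points.

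Other genes of the same pathways were counted from lists. Beside these counts, 8.18% of all genes tested passed in somatic cells after dex and 0.208% in germ cells. An unadjusted p under 0.05 was far more common, in 3453 of all 16556 genes tested in somatic cells and 1963 of 16857 in germ cells. Of 8 further phosphatase, Sprouty and Spred genes, 7 were tested in germ cells and 8 in somatic cells, and edgeR called 0 in either, with 0 and 3 at an unadjusted p under 0.05. DESeq2 called 0 and 1, the latter Dusp2, a gene singled out after its values were seen. Spred2, the closest relative of Spred1, was 54.3 CPM in saline somatic cells and 4.63 CPM in saline germ cells, a log2 fold change of -3.55 (adjusted p = 5.27e-11), whereas that of Spred1 was 0.11. Spry3 was below the floor in saline germ cells, at 0.0394 CPM, and stood at 2.56 CPM in saline somatic cells. The median somatic dex log2 fold change over the 8 was -0.17.

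Of 15 other negative regulators of receptor tyrosine kinases and RAS, edgeR called 1 lower in somatic cells after dex. It was Dok2, an adaptor of blood cells that dampens RAS signalling. Of all genes tested in somatic cells 8.18% passed. Dok2 measured 7.15, 8.26 and 7.03 CPM after saline and 3.76, 4.05 and 4.81 CPM after dex, with a log2 fold change of -0.82 ± 0.20 (SE, adjusted p = 0.0196). The call was lost in 5 of 6 fits that left out 1 library, with adjusted p from 0.0561 to 0.104, and held without somatic dex replicate 3. Macrophage markers fell in the same libraries (7 of 10 lower, sums of 71.6 to 165 against 235 to 307 CPM), and their part in the Dok2 value was not tested. Dok2 was also present in saline germ cells, at 7.68 CPM against 7.48 CPM in saline somatic cells (edgeR adjusted p = 0.856). In dex germ cells Dok2 averaged 9.86 CPM, and the germ cell groups did not overlap, as in 16.9% of all genes. Its germ cell log2 fold change of 0.38 did not pass the test (edgeR adjusted p = 0.398). In germ cells 0 of 14 passed in edgeR, with 4 at an unadjusted p under 0.05 beside 1963 of all 16857 genes tested, and DESeq2 called 0.

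Among the growth factor ligands 3 of 14 tested rose in somatic cells and none fell, where 8.18% of all genes tested passed. The median over the 14 was -0.16. Fgf2, a fibroblast growth factor, measured 76.6, 59.5 and 65.8 CPM after saline and 126, 138 and 101 CPM after dex, with every dex library above every saline library. Its log2 fold change was 0.86 ± 0.11 (SE, adjusted p = 0.000254). Fgf10, a ligand of mesenchymal cells for epithelia, rose from 8.25 ± 1.38 to 14.8 ± 2.63 CPM (SD, n = 3, edgeR adjusted p = 0.00825), a call lost without somatic saline replicate 2 (0.75, adjusted p = 0.0502). Pdgfc, which encodes a ligand of the receptor PDGFRA and was named after its values were seen, rose from 86.3 ± 5.62 to 118 ± 14.4 CPM (SD, n = 3, edgeR adjusted p = 0.00437), a call lost when all 12 libraries shared 1 fit (adjusted p = 0.0587). In germ cells edgeR called 0 of 13 ligands, with 2 at an unadjusted p under 0.05, and DESeq2 called 0.

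Of 14 receptor tyrosine kinase genes, 2 rose in somatic cells after dex, where 8.18% of all genes tested passed. Egfr, the receptor that Errfi1 inhibits, measured 47.2, 45.1 and 44.8 CPM after saline and 76.1, 82.5 and 70.6 CPM after dex. Its groups were well apart, with a log2 fold change of 0.75 ± 0.08 (SE, adjusted p = 3.35e-05) that passed under all 11 alternatives. Pdgfra, a receptor that marks ovarian stroma and is also 1 of the 10 stromal markers used here, rose from 551 ± 35.9 to 843 ± 57.1 CPM (SD, n = 3, edgeR adjusted p = 0.000101). In germ cells Egfr was 1.94, 1.95 and 2.9 CPM after saline and 1.7, 5.96 and 5.01 CPM after dex, overlapping, with an adjusted p of 0.388, and the dex effect on Egfr was not shown to differ between the cell types (0.15, 95% CI -0.58 to 0.89, adjusted p = 0.896). The summed stromal markers ranged from 20963 to 23335 CPM in saline and from 19509 to 25752 CPM in dex somatic cells, and their part in the Egfr and Pdgfra values was not tested.

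Kit, the receptor for the germ cell survival factor Kit ligand, was the receptor that fell in germ cells. It measured 183, 185 and 161 CPM after saline and 104, 124 and 122 CPM after dex, with no overlap, a log2 fold change of -0.58 ± 0.08 (SE, adjusted p = 0.00959) that passed under all 11 alternatives. In somatic cells Kit was 33.5, 33.4 and 27 CPM after saline and 40.9, 38 and 39.5 CPM after dex, a log2 fold change of 0.34 with an adjusted p of 0.0511 in edgeR, 0.0481 in DESeq2, 0.0386 with the replicate block and 0.0241 with no low-count filter. The difference of the dex effect on Kit between the cell types was -0.94 ± 0.13 (SE, adjusted p = 0.000955).

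The kinases and adaptors in between did not pass the test. Of 20 genes of the cascade from receptor adaptors through RAS, RAF and MEK to ERK, edgeR called 0 in germ cells and 0 in somatic cells, with 3 at an unadjusted p under 0.05 in each, and DESeq2 called 0 in each. Medians were -0.08 and -0.02, and the values ranged from -0.26 to 0.17 in germ cells and from -0.25 to 0.28 in somatic cells. Of the p38 and JNK cascades, 13 genes in germ cells and 14 in somatic cells were tested and edgeR and DESeq2 called 0, with 0 and 2 at an unadjusted p under 0.05. Between the cell types after saline, 6 of the 20 cascade genes were higher in germ cells, 10 were lower and 4 were not called. Their median log2 fold change was -0.19. Of all genes tested in that comparison 86.1% were called and 42.9% were lower in germ cells.

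Transcripts known to follow ERK activity were counted beside the inhibitors, while ERK activity itself was not measured. Of 15 tested in somatic cells 3 rose after dex and none fell, where 8.18% of all genes tested passed. The median log2 fold change of the 15 was -0.04. Etv1, an ETS factor, rose from 17.8 ± 1.37 to 26.1 ± 0.626 CPM (SD, n = 3, edgeR adjusted p = 0.00508). Fos rose from 1006 ± 106 to 1468 ± 237 CPM (SD, n = 3, edgeR adjusted p = 0.00511), with an adjusted p of 0.158 when all 12 libraries shared 1 fit. Egr1 rose from 1653 ± 79.4 to 1933 ± 101 CPM (SD, n = 3, edgeR adjusted p = 0.0407), a call lost in the fit of all 12 libraries (adjusted p = 0.401) and in 5 of 6 fits that left out 1 library (adjusted p up to 0.222), and held without somatic dex replicate 3. Fos and Egr1 are also in the list of dissociation and stress transcripts, where they were the 2 of 13 called in somatic cells, and the part of the digestion in their values was not tested.

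In germ cells edgeR called 0 of 14 tested transcripts of this ERK list, with 2 at an unadjusted p under 0.05, and DESeq2 called 0. After saline, 13 of 15 were lower in germ cells than in somatic cells and none was higher, with a median log2 fold change of -4.17, where 42.9% of all genes tested were lower and their median was 0.0047. This list shares genes with that of the dissociation and stress transcripts, of which all 13 were lower. Ier3, an early response gene, averaged 0.598 CPM after saline and 1.51 CPM after dex in germ cells, and 58 and 52.4 CPM in somatic cells. Its germ cell counts were 6 to 14 per library after saline and 17 to 32 after dex. The part of carried-over somatic RNA in these values was not tested. The dex effect on Ier3 differed between the cell types by 1.45 ± 0.35 (SE, adjusted p = 0.0454). This call was lost in 10 of 12 fits that left out 1 library, with adjusted p up to 0.166. It held without germ dex replicate 3 and without germ saline replicate 2.

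**Figure D5:**
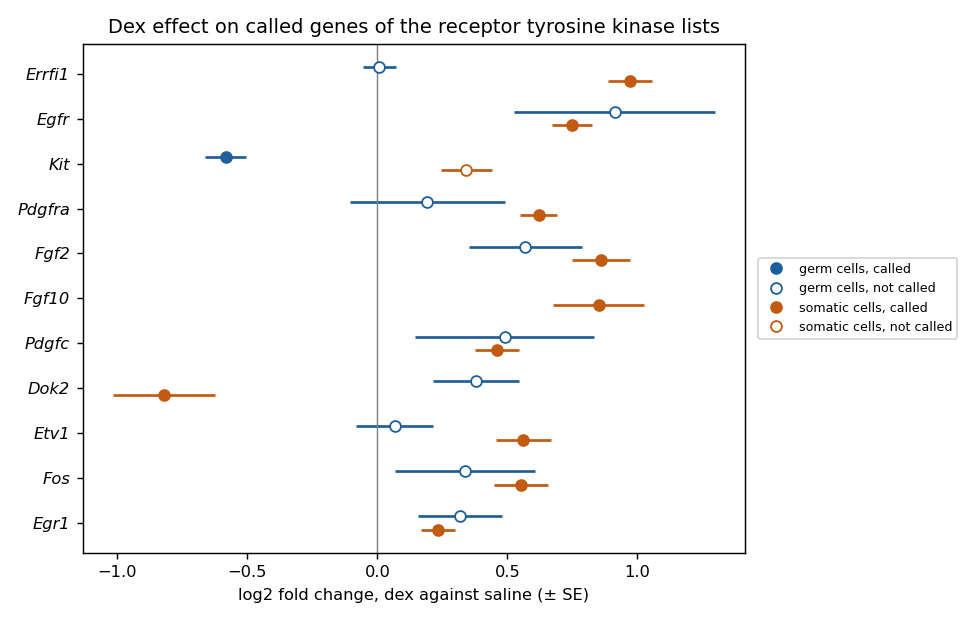
Log2 fold change, dex against saline, with bars of 1 SE, of Errfi1 and the other signalling genes that passed the test in germ cells (blue) or somatic cells (orange), filled where called. Errfi1, Egfr and Pdgfra lie to the right in somatic cells, Kit lies to the left in germ cells (-0.58), and Fgf10 has no germ cell point because it did not pass the low-count filter there.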

How the data were processed

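RNA was measured by poly-A selected, paired-end RNA-seq in 12 libraries, 3 in each of 4 groups set by the sample labels. According to the submitters' processing notes and the study's methods, pairs were aligned to mm10 with HISAT2 2.0.5 and fragments were counted per gene with featureCounts 1.5.0-p3, and the authors deposited these as raw counts. The deposited FPKM values were computed by the authors from the counts, gene length and depth, and were used here to order members within a group. The strand setting and the handling of reads mapping to several places are not given in the sources used here. The other deposited tables hold the authors' own DESeq2 1.20.0 comparisons and were not used.

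Counts were tested with edgeR 4.0.16 in R 4.3.3 by the quasi-likelihood test, with TMM scaling, filterByExpr and Benjamini-Hochberg adjustment over all genes tested, and a call needed an adjusted p of at most 0.05. The replicate libraries are pools of litters, so p-values measure the spread between pools. Dex was compared with saline within each cell type, the cell types were compared among saline libraries, and the difference of the dex effects used all 12 libraries. SEs are those implied by the F statistic. CPM values use library totals multiplied by TMM factors and are summarised as mean ± SD. Totals of 14658503 to 18245507 counts set the floor of 3 counts at 0.169 to 0.196 CPM, which covers counting error only. The scripts were tested on simulated data. DESeq2 1.42.0, other size factors (RLE), no low-count filter, a replicate block, all 12 libraries in 1 fit and leaving out each library were the alternatives.

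The members and lists were chosen with earlier results of these data known. All 10 members are named. From each pathway list and comparison, up to 2 called genes with the largest change and a mean of at least 1 CPM are named, together with Fkbp5 and Per1, and the 2 genes of at least 1 CPM most correlated with each member called after dex. Pdgfc and Tsc22d3 after dex, and Kit in somatic cells, fall outside this rule. Promoter windows came from RefSeq (GRCm38.p6).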

Additional observations from a re-analysis of the deposited data

Results flagged for a closer look

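Errfi1 stood out because its dex effect differed between the cell types. The difference, germ cells minus somatic cells, was -0.975 on the log2 scale (edgeR quasi-likelihood test over 12 libraries, Benjamini-Hochberg adjusted p = 0.000146).

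The same test separated the cell types for 3 other signalling genes. Kit differed by -0.937 (adjusted p = 0.000955), falling in germ cells and measuring 31.3 and 39.5 CPM in saline and dex somatic cells. Dok2 differed by 1.19 (adjusted p = 0.0207), a call lost in 5 of 12 fits that left out 1 library, with adjusted p up to 0.0698 without somatic saline replicate 2. It averaged 7.68 and 9.86 CPM in saline and dex germ cells, and 7.48 and 4.21 CPM in saline and dex somatic cells. Ier3 differed by 1.45 (adjusted p = 0.0454), a call lost in 10 of 12 such fits, with adjusted p up to 0.166 without germ dex replicate 2. It held without germ dex replicate 3 and without germ saline replicate 2. The germ cell counts of Ier3 were 6 to 14 per library after saline and 17 to 32 after dex.

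Among the reference genes of the receptor, Klf9 differed by -2.95 (adjusted p = 1.6e-06), Tsc22d3 by -1.13 (adjusted p = 1.87e-05) and Fkbp5 by -0.971 (adjusted p = 0.000328). Zbtb16 differed by -3.99 (adjusted p = 0.00913), a call lost without germ saline replicate 2 (-3.53, adjusted p = 0.072).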

How the results depend on the processing

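Errfi1 kept its call and direction in somatic cells, in the difference and between the cell types under every alternative run, and 9 of 10 members were called between the cell types in each. Members called in somatic cells were 2 with DESeq2, 3 with no low-count filter, 2 with the replicate block and 1 to 3 in leave-one-out fits (3 without somatic dex replicate 3), through Dusp5 and Dusp1. Of all genes, in germ cells 35 genes became 154 with DESeq2, 420 with no filter, 64 with 12 libraries in the fit, and 17 to 81 in leave-one-out fits (81 without dex replicate 1, 17 without dex replicate 2 or saline replicate 3). In somatic cells 1354 became 803 with 12 libraries and 754 to 1881 in leave-one-out fits (856 without dex replicate 2, and 888, 756 and 754 without saline replicates 1, 2 and 3). For the difference 314 became 623 with DESeq2, 727 with no filter, and 143 to 384 in leave-one-out fits (178 and 188 without germ dex replicates 2 and 3, 169 without germ saline replicate 3, 201 and 182 without somatic dex replicates 1 and 2, 167 and 143 without somatic saline replicates 2 and 3). The cause was not tested.

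Values that were not called changed sign in some leave-one-out fits. In germ cells the ranges were -0.282 to 0.112 for Dusp1, -0.0614 to 0.14 for Dusp5, -0.311 to 0.214 for Dusp10, -0.179 to 0.0191 for Spry1, -0.492 to 0.748 for Spry4, -0.0229 to 0.0526 for Errfi1 (-0.000964 with DESeq2) and -0.000177 to 0.0533 for Spred1. In somatic cells they were -0.295 to 0.179 for Dusp10, -0.0274 to 0.0719 for Spry1, -0.0532 to 0.0774 for Spry2 and -0.0477 to 0.126 for Spry4. For the difference they were -0.264 to 0.272 for Dusp10, -0.00722 to 0.21 for Spry2 and -0.54 to 0.681 for Spry4.

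Same-numbered dex and saline libraries did not all deviate together (correlations of 0.0131 to 0.215 in germ cells and -0.0165 to 0.116 in somatic cells), so the replicate numbers were not taken as pairs. Between germ and somatic libraries of 1 treatment each library correlated best with its own number (0.0798 to 0.134). This is a hint, not given by the labels, that same-numbered germ and somatic libraries came from the same pools. The test between cell types treated the libraries as unpaired, except with the replicate block. The test of the difference was also unpaired. There the block was shared by same-numbered libraries of all 4 groups, so it tied dex to saline libraries as well. Pairing of germ and somatic libraries within a treatment was therefore not tested for the difference. With the replicate block, members called were 0 in germ cells, 2 in somatic cells (Dusp5 added), 1 for the difference and 9 between the cell types, Ier3 lost its call for the difference (adjusted p = 0.0555), and Kit gained a somatic call (0.0386). In germ cells Dusp4, Dusp6, Dusp10 and Spry4 rested on 7 to 67 counts per library.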
